A study of Mus musculus with 20 samples.

Results

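Lysosomal hydrolases, their activator proteins, lysosomal membrane proteins and the transcription factors of the lysosome were followed as a set of 33 named genes, with the cathepsins left out, in microglia of mice that carry an activating allele of the kinase Braf. The set was taken by name from a table of 55487 genes. All 33 genes were found in it, and all 33 were among the 16595 genes with enough counts to be tested. Microglia, the resident macrophages of the brain, had been profiled by bulk RNA sequencing in 20 libraries from 10 mice, with 1 library labelled cortex and 1 labelled brainstem from each mouse. In these mice a tamoxifen-inducible Cre under Cx3cr1, a gene of microglia and other mononuclear phagocytes, switches on Braf V600E, and 4-hydroxytamoxifen (37.5 mg per kg) had been given to the pregnant mother at embryonic day 9.5. The series asked how the mutant cells differ from control cells in each region at 2 months of age and at a stage labelled end-stage, for which the labels give no age. At 2 months, 3 mutant mice (M2617, M2621 and M2624, labelled Braf VE and heterozygous for the Cx3cr1 Cre allele) stood against 3 control mice (M2618, M2629 and M2633, labelled Braf WT and heterozygous for Cx3cr1 Cre). At end-stage, 2 mutant mice (M1376 and M1524, labelled as the younger mutants are) stood against 2 control mice of different kinds, M1375 with the Braf allele but wild type at Cx3cr1, so without Cre, and M1521 with Braf WT and heterozygous Cx3cr1 Cre.

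The lysosome is the acidic compartment in which a cell takes apart what it has engulfed and its own worn parts. Soluble hydrolases each cut 1 kind of bond in sphingolipids, gangliosides, glycosaminoglycans, glycogen or glycoproteins, small activator proteins lift lipids out of membranes for them, and the membrane proteins line the compartment, sort enzymes to it and carry cholesterol and ions out of it. Microglia depend on it to digest myelin, synapses and dead cells, and inherited loss of many of these genes causes storage disease with damage to the brain. The related transcription factors Tfeb, Tfe3 and Mitf bind a short DNA word, the E-box CACGTG, in front of many lysosomal genes.

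Some facts of the libraries bear on every value. Library totals ran from 9395203 to 21171114 counts, and no gene of the set had fewer than 61 counts in any library. Levels are given as CPM, the counts scaled by library size. The sum over 8 microglia markers ran from 31325 to 59656 CPM over the 20 libraries, so the labelled cell type was present throughout. The region labels could not be taken at face value. In 9 of 10 mice the summed level of 11 Hox genes, which pattern the hindbrain in the embryo, was greater under the label cortex, with 0.600 to 3.35 CPM in cortex-labelled against 0.311 to 1.19 CPM in brainstem-labelled libraries over all mice, so libraries are called by their label only. Among the 6 mice aged 2 months, 5 had a title with another mouse number than the description, which names the count column. Genotypes at 2 months were taken from the mouse number of the column, and for 4 of those mice the record itself gives the other genotype. Exons of 12 of the 33 genes share bases with another gene, 11 on the opposite strand and 1 (Glb1) on the same strand, and the use of strand in counting is not given in the sources used here. In bulk libraries fewer cells of a type and less RNA per cell cannot be told apart.

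The E-box was searched on both strands in the promoters of the set, since 3 factors that bind it are members of the set and members moved in the same direction in what follows. RefSeq promoters on GRCm38.p6, 250 bases before to 50 bases after the start, were at hand for 31 of the 33 genes. CACGTG stood in 10 of these 31 promoters (32.3%), against 8.09% of 27025 promoters of all genes and 11.5% of the 10643 promoters of tested genes. The E-box with T before and A after it, a form this factor family is known to favour, stood in 4 of 31 (12.9%), against 1.12% of all promoters and 2.17% of those of tested genes. The sequences below are the bases before the start, 5′ to 3′ on the gene's strand, of the 4 genes that both held an E-box and passed a comparison in the fit over all groups without a mouse block, with the E-box in capitals.
Gla (alpha-galactosidase A, which removes galactose from globotriaosylceramide), chrX:134601006-134601255, minus strand: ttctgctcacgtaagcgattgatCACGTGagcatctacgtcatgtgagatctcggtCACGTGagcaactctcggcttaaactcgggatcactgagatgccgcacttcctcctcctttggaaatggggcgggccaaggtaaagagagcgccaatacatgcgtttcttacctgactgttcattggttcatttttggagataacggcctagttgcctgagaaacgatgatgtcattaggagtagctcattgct
Glb1 (beta-galactosidase, which acts on ganglioside GM1), chr9:114400828-114401077, plus strand: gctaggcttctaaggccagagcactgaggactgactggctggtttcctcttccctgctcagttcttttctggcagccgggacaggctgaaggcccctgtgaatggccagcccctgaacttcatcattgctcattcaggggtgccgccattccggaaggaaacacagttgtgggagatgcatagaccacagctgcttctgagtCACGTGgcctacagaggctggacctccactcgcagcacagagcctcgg
Gaa (acid alpha-glucosidase, which degrades glycogen), chr11:119267713-119267962, plus strand: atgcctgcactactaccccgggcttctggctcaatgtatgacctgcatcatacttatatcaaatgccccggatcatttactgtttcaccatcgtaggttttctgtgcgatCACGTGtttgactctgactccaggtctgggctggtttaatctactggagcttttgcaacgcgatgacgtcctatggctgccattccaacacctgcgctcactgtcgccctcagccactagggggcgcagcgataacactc
Ifi30 (a thiol reductase that opens disulfide bonds of engulfed proteins), chr8:70766664-70766913, minus strand: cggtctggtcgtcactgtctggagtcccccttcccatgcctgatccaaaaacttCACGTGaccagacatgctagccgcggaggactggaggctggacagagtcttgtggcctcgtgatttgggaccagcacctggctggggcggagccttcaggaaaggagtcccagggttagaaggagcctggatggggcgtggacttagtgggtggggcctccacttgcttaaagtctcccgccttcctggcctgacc
Gla holds 2 E-boxes, which begin 227 and 194 bases before the start, and both have the T and A flanks. Ifi30 holds 1 with those flanks, 196 bases before the start, while the E-boxes of Glb1 (48 bases before) and Gaa (140 bases before) lack them. Lamp1 had the most E-boxes of the set, 4, but passed no comparison in that fit, and this gene was singled out after its values were seen. A match in these letters describes the promoter and is not a bound site.

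Per kilobase of exon, Psap, the precursor of the saposins that activate sphingolipid hydrolases, was the most abundant of the 33 genes at a mean of 2076 CPM per kb over 20 libraries. Cd68, a heavily glycosylated lysosomal membrane protein of macrophages, followed at 1297 and Grn, the secreted and lysosomal protein progranulin, at 1107 CPM per kb. Hexa, the alpha subunit of hexosaminidase A, and Lamp1, the main protein of the lysosomal membrane, stood next to each other at 792 and 790.1 CPM per kb. At the other end stood Sgsh (7.71), Gla (3.21), Mitf (3.05) and Galc (2.09 CPM per kb). Asah1, acid ceramidase, ranked below Lamp1 at 262 CPM per kb, and the genes between it and Sgsh ran from 188 down to 12.6 CPM per kb.

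The summed level of the 33 genes was higher in mutant than in control cortex-labelled libraries at both stages. At 2 months the sum was 33586, 28744 and 29191 CPM in the mutants M2617, M2621 and M2624, against 20189.5, 18297 and 19016.5 CPM in the controls M2618, M2629 and M2633. At end-stage it was 28774 and 34135 CPM in the mutants M1376 and M1524, against 21869.7 and 24664 CPM in the controls M1375 and M1521. No control reached a mutant in either group of libraries. In brainstem-labelled libraries the sum was 26188, 20551 and 23333 CPM in 2-month mutants, against 24562, 21358 and 23017 CPM in 2-month controls, and there the groups overlapped. At end-stage it was 22409 and 26135 CPM in mutant brainstem-labelled libraries, against 16179 and 22635 CPM in control ones, which also overlapped. Psap alone made up between 0.685% and 0.988% of all counts in the 2-month mutant cortex-labelled libraries, against 0.306% to 0.387% in the controls. Without Psap the sum still stood at 23407, 21364 and 21353.5 CPM in these mutants, against 16556, 15406.5 and 15507 CPM in the controls.

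Mutant and control cortex-labelled microglia at 2 months differed in 10 of the 33 genes, and all 10 rose in the mutants (edgeR's quasi-likelihood test, Benjamini-Hochberg adjusted p under 0.05). Of all 16595 genes tested, 5.45% passed in this comparison and 3.64% passed as higher in mutants. The median log2 difference was 0.29 over the 33 genes and −0.01 over all genes tested. The genes that rose came from 5 of the 6 roles: 4 of 10 in sphingolipid and ganglioside breakdown, 2 of 6 in glycosaminoglycan, glycogen and glycoprotein breakdown, 2 of 8 membrane proteins, 1 of 2 in neutral lipid and sterol handling, and 1 of 4 in protein and peptide processing. None of the 3 transcription factors passed. In 15 of 33 genes all 3 mutants lay above all 3 controls, and in 2 all 3 lay below, against 13.4% and 11.3% of all genes.

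Psap (ENSMUSG00000004207.14, chr10:60277627-60302597, plus strand, GRCm38) showed the smallest p of the set. It stood at 10179, 7379.6 and 7838 CPM in the mutant cortex-labelled libraries, against 3633, 2891 and 3509 CPM in the controls (in the order of mouse numbers given above, as in all such lists). The lowest mutant was above the highest control by a wide margin (log2 difference 1.34 ± 0.20 SE, adjusted p = 0.00115). Neu1 (ENSMUSG00000007038.5, chr17:34931253-34935953, plus strand), the sialidase that trims sialic acid from gangliosides and glycoproteins, had 195, 163 and 166 CPM in mutants, against 82.6, 99.1 and 88.3 CPM in controls. The groups did not overlap (log2 difference 0.96 ± 0.16 SE, adjusted p = 0.00193). For Gm2a, the activator that presents ganglioside GM2 to hexosaminidase A, the values were 921, 838 and 819 CPM in mutants, against 527, 515 and 421 CPM in controls. All 3 mutants were higher (log2 difference 0.82 ± 0.19 SE, adjusted p = 0.0145). Glb1 rose as well, with 210.1, 162 and 178 CPM in mutants, against 111, 95.5 and 104 CPM in controls (log2 difference 0.83 ± 0.20 SE, adjusted p = 0.0187). The other 6 genes of this role did not pass. They were Gla (log2 difference 0.97), Hexa (0.32), Galc, which removes galactose from the myelin lipid galactosylceramide (0.26), the sulfatide sulfatase Arsa (0.16), Asah1 (−0.02) and the acid sphingomyelinase Smpd1 (−0.15).

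Among the glycan hydrolases, Man2b1, the lysosomal alpha-mannosidase of glycoprotein breakdown, stood at 2392, 1840.3 and 1914 CPM in 2-month mutant cortex-labelled libraries, against 1237, 962 and 993 CPM in controls. It was higher in every mutant (log2 difference 0.95 ± 0.19 SE, adjusted p = 0.00585). Gaa had 267, 244 and 247 CPM in mutants, against 154, 109.9 and 97.3 CPM in controls, again without overlap (log2 difference 1.07 ± 0.26 SE, adjusted p = 0.0209). Naglu, a heparan sulfate glucosaminidase, and Gusb, beta-glucuronidase, lay higher in all 3 mutants too but missed the threshold (log2 differences 0.80 and 0.49, adjusted p = 0.0615 and 0.093 in the same edgeR test). Npc2, the soluble carrier that hands cholesterol to the membrane protein Npc1, stood at 1095, 1060.2 and 912 CPM in mutants, against 557, 702 and 560.0 CPM in controls. It rose (log2 difference 0.75 ± 0.15 SE, adjusted p = 0.00549), while Npc1 itself had 114, 128 and 115 CPM in mutants, against 155, 141 and 160.2 CPM in controls. Every mutant was lower in Npc1, and the test did not pass (log2 difference −0.35, adjusted p = 0.152). Lipa, the acid lipase that frees cholesterol from its esters, did not pass either (0.14).

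Grn was the gene of protein and peptide processing that passed, at 5999, 5181 and 5563 CPM in the 2-month mutant cortex-labelled libraries, against 3250.3, 2309 and 2759 CPM in controls. The lowest mutant stood well above the highest control (log2 difference 1.01 ± 0.23 SE, adjusted p = 0.0121). Ifi30 (0.42), the thioesterase Ppt1 (0.12) and the peptidase Tpp1 (−0.11) did not pass. Of the membrane proteins, Cd63 (ENSMUSG00000025351.14, chr10:128900989-128912822, plus strand), a tetraspanin of late endosomes and lysosomes, had 610.1, 587 and 592 CPM in mutants, against 346, 349.7 and 306 CPM in controls. The mutants lay close together and above all controls (log2 difference 0.84 ± 0.20 SE, adjusted p = 0.0193). Scarb2, the receptor that sorts glucocerebrosidase to lysosomes, changed less, with 342, 372 and 371 CPM in mutants, against 268, 244 and 266 CPM in controls (log2 difference 0.48 ± 0.11 SE, adjusted p = 0.0165). Lamp1 stood at 2539.7, 2206 and 2202 CPM in mutants, against 2029, 1854 and 1794 CPM in controls, higher in each mutant but not past the threshold (log2 difference 0.29, adjusted p = 0.202). Cd68 ran the other way, at 1317, 1560.1 and 985 CPM in mutants, against 1578, 1727 and 1715 CPM in controls (log2 difference −0.38, adjusted p = 0.248). Lamp2 (0.10), the endolysosomal protein Cln3 (0.13) and the calcium channel Mcoln1 (−0.05) did not pass.

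These 10 calls rest on the genotype being read from the mouse number. With the genotype of the sample record, edgeR called 1 of all 16595 genes, against 904 by mouse number, and 694 had an unadjusted p under 0.05. Of the 33 genes 0 passed and 2 had an unadjusted p under 0.05, and all 10 differences changed sign. Without the 4 mice whose genotype is in conflict, which leaves 1 mutant and 1 control mouse at 2 months with their spread assumed to be that of the other groups, 0 passed and 9 had an unadjusted p under 0.05. Leaving out single mice gave 5 calls without M2629, 4 without M2633, and 6 without M2617 or M2624. Psap, Neu1, Npc2 and Man2b1 passed in each of the 10 fits that left out 1 mouse.

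**Figure D1:**
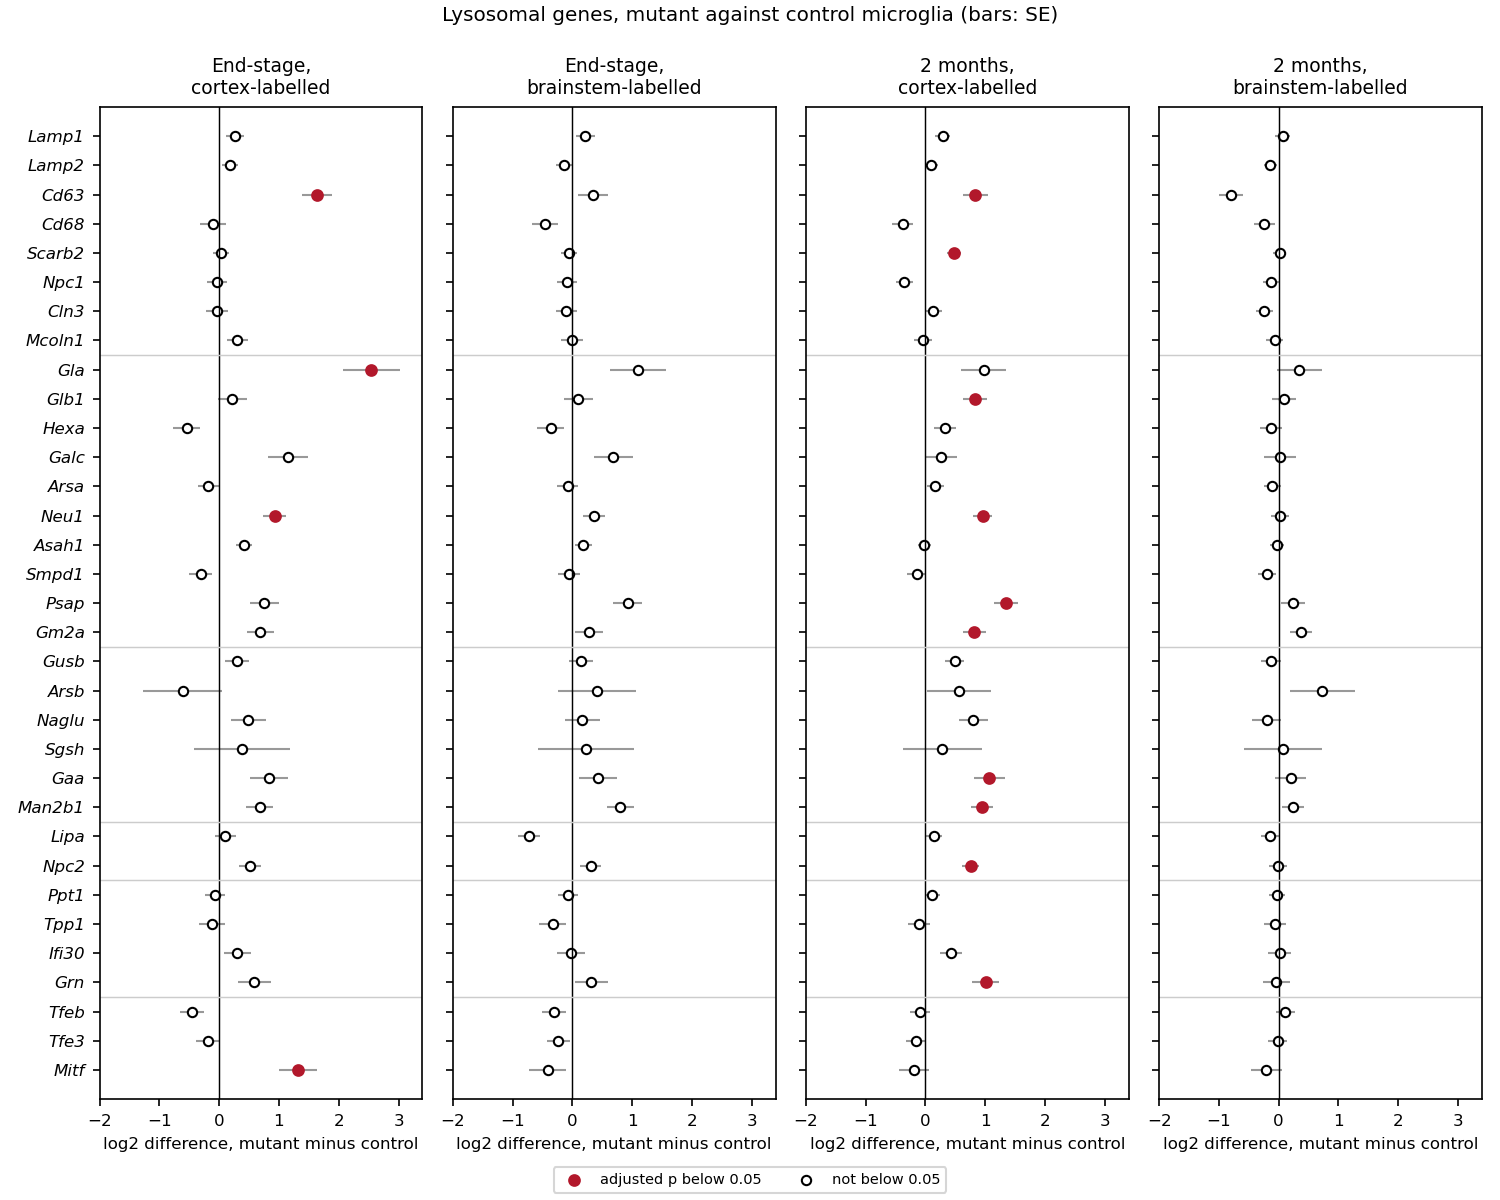
Log2 difference of each of the 33 genes, mutant minus control, with its SE, in the 4 genotype comparisons; genes run down by role, with grey lines between roles, and filled red points passed the test. Filled points stand in the cortex-labelled panels (4 at end-stage and 10 at 2 months), all to the right of 0, and none in the brainstem-labelled panels.

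Markers of other cells moved with this comparison. The summed level of 7 monocyte markers was 239 to 286 CPM in 2-month mutant cortex-labelled libraries, against 26.9 to 47.6 CPM in controls, with Plac8, Itgal, Ms4a4c and Ms4a6c higher by test. The other markers of this list did not pass. Ccr2 had 1.28, 1.49 and 1.24 CPM in mutants, against 0.437, 4.11 and 1.45 CPM in controls. Ly6c2 reached at most 1.13 CPM and Chil3 at most 0.618 CPM in these libraries. No marker was at 0 counts throughout either group. The 8 markers of border-associated macrophages summed to 68.7 to 116 CPM in mutants, against 2.79 to 32.4 CPM in controls, with Siglec1 higher by test and Lyve1 at 0 counts in all 3 mutants. Siglec1 made up most of the mutant sums, at 97.8, 64.8 and 109 CPM, against 1.15, 4.46 and 1.85 CPM in controls. No other marker of this list passed. Mrc1 had 0.122, 1.44 and 1.96 CPM in mutants, against 0.492, 6.56 and 5.62 CPM in controls. The 8 microglia markers summed to 42442 to 44570.3 CPM in mutants, against 48487 to 49555 CPM in controls, and P2ry12 and Sall1 were lower by test. The 6 markers of endothelial cells and pericytes summed to 66.3 to 72.4 CPM in mutants, against 21.9 to 34.2 CPM in controls, with Kdr and Flt1 higher by test. The 5 B cell markers summed to 423 to 633 CPM in mutants, against 656 to 766 CPM in controls, with Cd79b, which microglia also express, lower by test and Ms4a1 at 0 counts in both groups. Of 5 neutrophil markers, S100a8, Retnlg, Ly6g and Mpo were at 0 in both groups. Mitochondrial transcripts took 0.226% to 0.331% of counts in mutants, against 0.138% to 0.192% in controls. The part of any of these in the lysosomal differences was not tested.

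At end-stage, 4 of the 33 genes rose in mutant cortex-labelled libraries and none fell, where 4.01% of all genes passed and 1.83% passed as higher. They were Cd63, Gla, Neu1 and Mitf. The median log2 difference of the 33 genes was 0.30, against 0.02 over all genes tested. In 16 genes both mutants lay above both controls and in 5 both lay below, against 25.1% and 24.0% of all genes. Cd63 stood at 1422 and 1372 CPM in the mutants, against 431 and 471 CPM in the controls. Of the 8 membrane proteins it had the greatest difference (log2 difference 1.63 ± 0.25 SE, adjusted p = 0.0015), and passed in all 10 fits that left out 1 mouse. Gla (ENSMUSG00000031266.6, chrX:134588149-134601125, minus strand) had 26.98 and 39.8 CPM in mutants, against 6.46 and 4.996 CPM in controls. The levels were low for the set, and the mutants stood far above the controls (log2 difference 2.55 ± 0.48 SE, adjusted p = 0.00579). Neu1 had 214 and 263 CPM in mutants, against 118 and 131 CPM in controls, without overlap (log2 difference 0.93 ± 0.19 SE, adjusted p = 0.0100).

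The other genes that had risen at 2 months were higher in both end-stage mutant cortex-labelled libraries as well, apart from Scarb2 and Glb1, but did not pass. Psap had 7746 and 8372 CPM in mutants, against 4214 and 5329 CPM in controls (log2 difference 0.76, adjusted p = 0.0996). Grn had 4252 and 6637 CPM in mutants, against 3206 and 4043 CPM in controls (0.59, adjusted p = 0.272). The 2 mutants were far apart in Grn, and the lower of them stood just above the higher control. Man2b1 had 1804 and 2773 CPM in mutants, against 1437 and 1420.1 CPM in controls (0.68, adjusted p = 0.116). Gm2a had 672 and 1111 CPM in mutants, against 534 and 572 CPM in controls (0.69, adjusted p = 0.112). For Npc2 the values were 981 and 1081 CPM in mutants, against 677 and 767 CPM in controls (0.51, adjusted p = 0.136). In these genes, too, M1524 was the higher of the mutants. Lamp1 had 2852 and 2532 CPM in mutants, against 2143 and 2345 CPM in controls (0.26, adjusted p = 0.393), and here M1376 was the higher. Hexa was lower in both mutants, 988 and 1409 CPM against 1761 and 1729 CPM in controls (−0.54, adjusted p = 0.214). In the end-stage comparison of cortex-labelled libraries 1 gene passed without M1375 or without M1524, 2 without M1521, and 6 without the 2-month mutant M2621. Each end-stage mouse left out leaves 1 mouse in its group. Over all genes, too, fewer passed without M1375 or M1521 than with all mice. With genotype by record 1 passed, Gla, and 171 of all 16595 genes. DESeq2 called 10 genes of the set here and 1203 of all 16595. The fit without a low-count filter called 9 of the set and 1282 of all 33450.

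Other markers moved here as well. Monocyte markers summed to 145 to 264 CPM in end-stage mutant cortex-labelled libraries, against 25.4 to 41.5 CPM in controls, with Ly6c2 and Chil3 at 0 counts in both groups and Ms4a6c, 1 of 7, higher by test. Markers of border-associated macrophages summed to 58.6 to 278 CPM in mutants, against 22.8 to 28.1 CPM in controls, and 0 of 8 passed. Siglec1 stood at 28.8 and 218 CPM in mutants, against 3.28 and 7.25 CPM in controls. Ms4a7 had 17.7 and 45.9 CPM in mutants, against 5.08 and 2.94 CPM in controls. Mrc1 overlapped, at 2.40 and 3.64 CPM in mutants, against 2.86 and 3.42 CPM in controls. The microglia markers summed to 31325 to 36817 CPM in mutants, against 45562 to 50837 CPM in controls, and P2ry12, Fcrls and Sall1 were lower by test. The B cell markers summed to 275 to 279 CPM in mutants, against 766 to 842 CPM in controls, with Cd79b and Ighm lower by test and Ms4a1 at 0 counts in the controls. The endothelial and pericyte markers summed to 35.7 to 58.7 CPM in mutants, against 24.1 to 37.1 CPM in controls, with Kdr and Flt1 higher and Pecam1 lower by test. The astrocyte gene Gfap was higher by test, at 2.51 and 11.4 CPM in mutants, against 0.318 and 0.0684 CPM in controls, while the 6 astrocyte markers summed to 240.1 to 737 CPM in mutants, against 136 to 1144 CPM in controls. Of 5 T and NK cell markers Klrd1 was lower by test, and Cd3e, Cd3g and Nkg7 were at 0 counts in both groups. Mitochondrial transcripts took 0.143% to 0.358% of counts in mutants, against 0.122% to 0.155% in controls. Neutrophil markers reached 0.325 CPM in mutants and were all at 0 in controls. The part of these in the lysosomal differences was not tested. Depth differed too, at 18484054 and 17275587 counts in these mutants, against 9395203 and 14307209 counts in the controls.

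**Figure D2:**
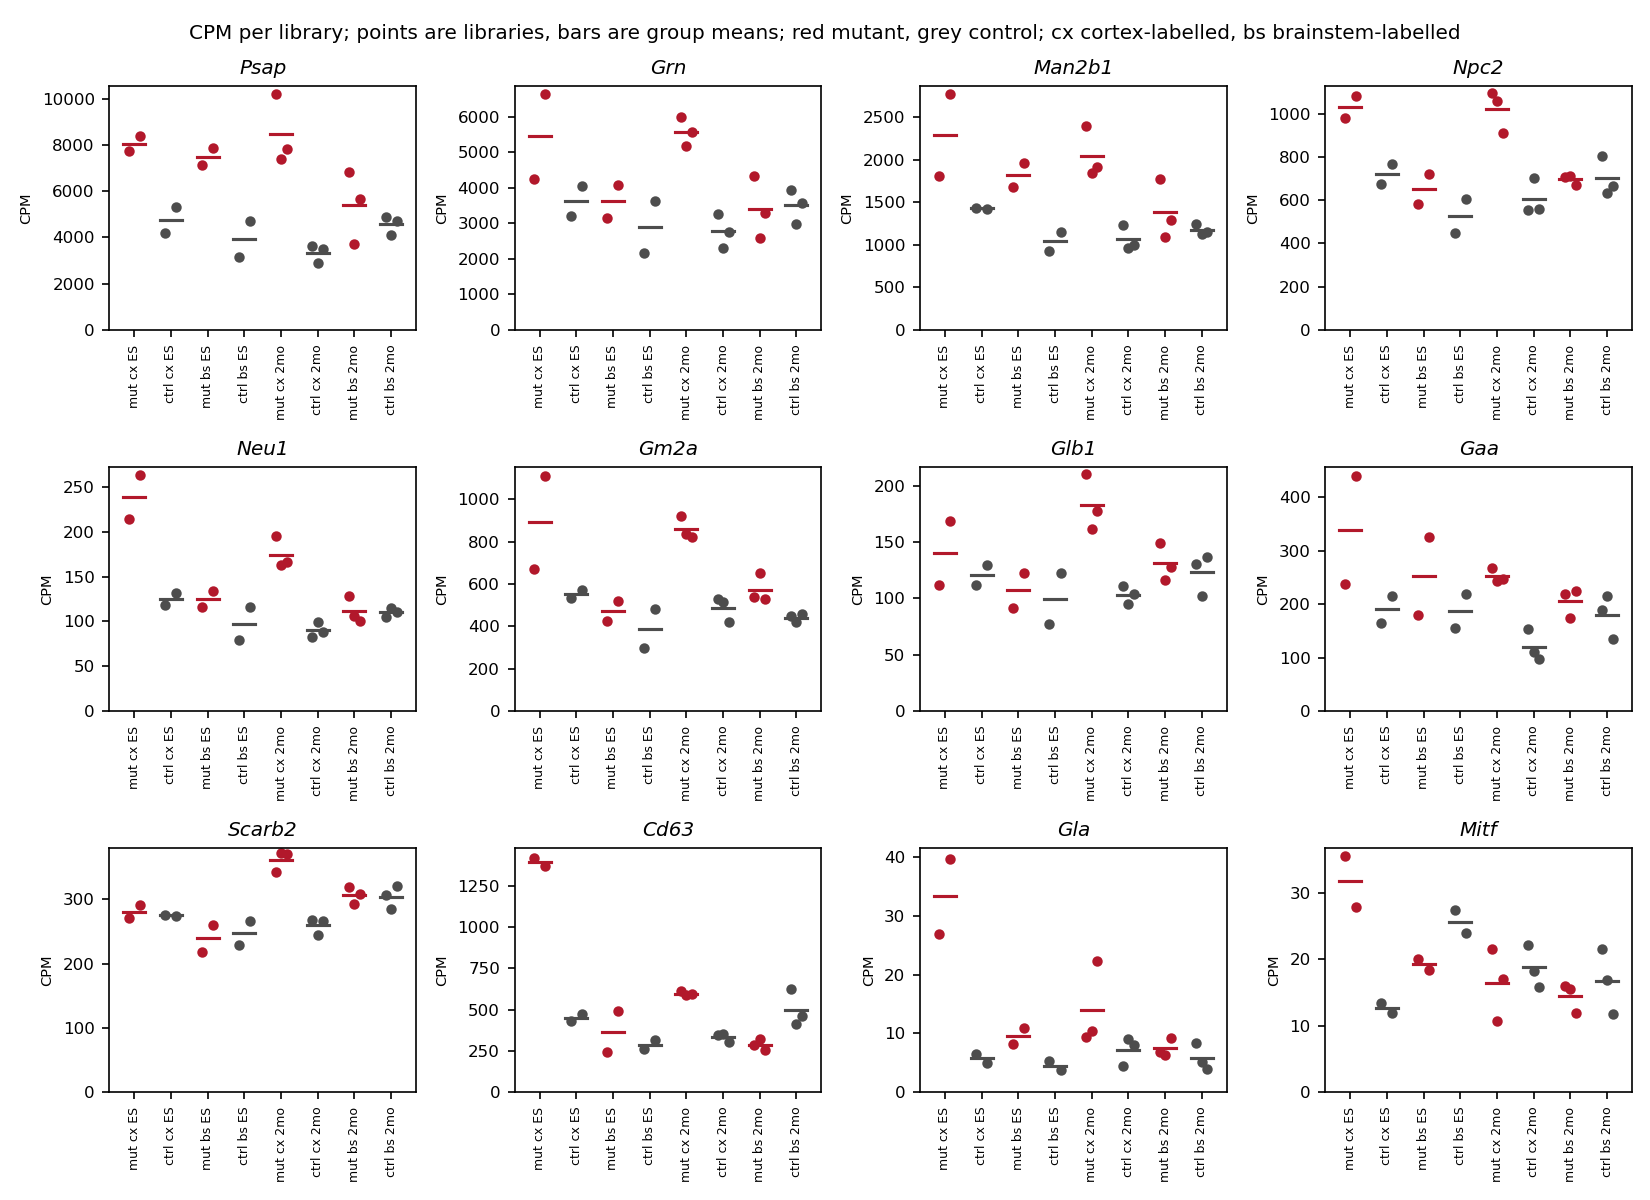
CPM of the 12 genes that passed a genotype comparison, in every library (points) with group means (bars); red marks mutants and grey controls, cx stands for cortex-labelled, bs for brainstem-labelled and ES for end-stage, and each y axis starts at 0. Psap, Neu1, Npc2, Man2b1, Grn, Gm2a and Cd63 are separated between mutant and control in cortex-labelled libraries at both stages, while Gla and Mitf stand out in the end-stage mutants.

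In brainstem-labelled libraries no gene of the set passed between mutants and controls. At 2 months edgeR called 0 of 33 (0.0362% of all genes passed). At an unadjusted p under 0.05 stood 1 of 33 and 1461 of all 16595 genes. DESeq2 called 1, Cd63 (198 of all 16595 genes). The median log2 difference of the 33 genes was −0.02. Cd63 had 284, 322 and 255 CPM in mutants, against 623, 412 and 460.0 CPM in controls, so all 3 mutants were lower here, where they had been higher in cortex-labelled libraries (log2 difference −0.80 ± 0.20 SE, adjusted p = 0.174). Psap had 6847, 3716 and 5665 CPM in mutants, against 4876, 4125 and 4709 CPM in controls, with M2621 below every control and the other two above every control. Grn had 4342, 2581 and 3289.6 CPM in mutants, against 3945, 2981 and 3583 CPM in controls. Man2b1 had 1772, 1094 and 1297 CPM in mutants, against 1246, 1126 and 1148 CPM in controls. In both genes the mutants spread around the controls. Neu1 (128, 106 and 100.4 CPM in mutants, against 105, 115 and 110.2 CPM in controls) and Npc2 (709, 710.1 and 671 CPM in mutants, against 803, 633 and 668 CPM in controls) overlapped as well. Gm2a was higher in each mutant, at 536, 649 and 531 CPM, against 448, 419 and 456 CPM in controls, and did not pass (0.38, adjusted p = 0.598). Lamp1 had 2108, 2090.0 and 2128 CPM in mutants, against 1953, 1999 and 2088 CPM in controls. Gla had 6.87, 6.24 and 9.18 CPM in mutants, against 8.42, 5.16 and 3.91 CPM in controls. The groups overlapped in Gla and not in Lamp1.

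At end-stage edgeR also called 0 of 33 genes in brainstem-labelled libraries (0.151% of all genes passed). At an unadjusted p under 0.05 stood 4 of 33 and 1731 of all 16595 genes. DESeq2 called 3, Lipa, Man2b1 and Psap (354 of all 16595 genes). The median log2 difference was 0.10. Psap had 7125 and 7869.7 CPM in mutants, against 3173 and 4728 CPM in controls. The difference was of the size seen in cortex-labelled libraries and did not pass (log2 difference 0.92 ± 0.24 SE, adjusted p = 0.125). Man2b1 had 1676 and 1965 CPM in mutants, against 928 and 1154 CPM in controls (log2 difference 0.81 ± 0.23 SE, adjusted p = 0.163). Lipa was lower, at 97.7 and 123 CPM in mutants, against 160.2 and 205 CPM in controls (log2 difference −0.73 ± 0.18 SE, adjusted p = 0.104). Gla had 8.27 and 10.8 CPM in mutants, against 5.27 and 3.68 CPM in controls, a separation of the groups at low counts. Cd63 had 242 and 489 CPM in mutants, against 259 and 315 CPM in controls, with M1376 below and M1524 above both controls. Neu1 stood at 116 and 134 CPM in mutants, against 78.7 and 116 CPM in controls, with M1376 level with M1521. Grn (3138 and 4089 CPM in mutants, against 2167 and 3627 CPM in controls), Npc2 (581 and 722 CPM in mutants, against 449 and 605 CPM in controls) and Gm2a (423 and 518 CPM in mutants, against 296 and 479.8 CPM in controls) overlapped. Lamp1 had 2049 and 1936 CPM in mutants, against 1398 and 2025 CPM in controls.

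Since each mouse gave both libraries, the label difference could also be read within mice. The fit over all groups takes no account of this pairing, and the fit with the mouse as a block does. In 2-month mutants 4 genes were higher in cortex-labelled than in brainstem-labelled libraries and none lower (Ifi30, Cd63, Neu1 and Npc2), where 4.85% of all genes passed and 2.8% passed as higher. With the mouse as a block 12 passed, 11 higher and Cd68 lower, while 1471 of all 16595 genes passed, 863 of them higher. In 2-month controls edgeR called 0 of 33 (0.145% of all genes). At an unadjusted p under 0.05 stood 6 of 33 and 2039 of all 16595 genes. DESeq2 called 1, Ifi30 (382 of all 16595 genes). With the mouse as a block 3 passed in these controls (196 of all 16595 genes), Ifi30 higher and Naglu and Psap lower. Ifi30 had the smallest p of the set in both, at 241, 307 and 254 CPM in cortex-labelled against 118, 115 and 94.8 CPM in brainstem-labelled mutant libraries (log2 difference 1.29 ± 0.19 SE, adjusted p = 0.000979). Its values in controls were 185, 242 and 171 CPM in cortex-labelled against 132, 107 and 85.6 CPM in brainstem-labelled libraries (log2 difference 0.88 ± 0.19 SE, adjusted p = 0.087), and over both stages its cortex-labelled value exceeded the brainstem-labelled value in 10 of 10 mice. Mcoln1 and Arsa did so in 10 of 10 mice too, and the share of all genes that did so was not computed. The 2-month mutant calls fell to 1 without M2617 or M2624 and to 2 without M2621, while DESeq2 called 9 and the fit without a low-count filter 8. Over all genes DESeq2 called 1426 of 16595 and the fit without the filter 1438 of 33450. With genotype by record 0 passed in the mutants (5 at an unadjusted p under 0.05) and 1, Ifi30, in the controls. Over all 16595 genes that reading gave 11 in the mutants (2346 at an unadjusted p under 0.05) and 10 in the controls. In the mutants the monocyte markers also differed by label, at 239 to 286 CPM in cortex-labelled against 28.5 to 61.3 CPM in brainstem-labelled libraries, with Ms4a4c and Ms4a6c higher and the microglia genes P2ry12 and Fcrls lower by test. The monocyte gene Ccr2 ran the other way and did not pass. It had 1.28, 1.49 and 1.24 CPM in cortex-labelled against 4.46, 6.63 and 10.1 CPM in brainstem-labelled libraries. Gfap, the oligodendrocyte gene Mobp and the neuronal gene Nefl were higher and Klrd1 and Pecam1 lower by test as well, and their part in these differences was not tested.

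In end-stage mutants 6 genes were higher in cortex-labelled libraries and none lower, where 2.31% of all genes passed and 1.19% passed as higher. These were Cd63 (log2 difference 1.93 ± 0.25 SE, adjusted p = 0.000394), Ifi30 (log2 difference 1.52 ± 0.23 SE, adjusted p = 0.00151), Lipa (log2 difference 0.91 ± 0.18 SE, adjusted p = 0.0117), Neu1 (log2 difference 0.93 ± 0.19 SE, adjusted p = 0.0132), Gm2a and Gla. In 20 of the 33 genes both cortex-labelled libraries lay above both brainstem-labelled ones and in 0 both lay below, against 22.8% and 22.5% of all genes. With the mouse as a block 10 passed, 9 higher and Arsb lower, while 813 of all 16595 genes passed, 461 of them higher. A fit of only the compared groups left 1, Ifi30 (147 of all 14182 genes). The end-stage controls gave 0 of 33 calls (0.0542% of all genes), with 6 at an unadjusted p under 0.05, 1 (Ifi30) by DESeq2 and 1 (Ifi30) with the mouse as a block. Of all 16595 genes 1697 had an unadjusted p under 0.05 there, DESeq2 called 258 and the fit with the block 111. The controls leaned the same way, with both cortex-labelled libraries above both brainstem-labelled ones in 13 genes and below in 1, against 19.1% of all genes in each direction, and the median log2 difference was 0.36 in mutants and 0.27 in controls. In the mutants P2ry12, Sall1, Klrd1 and Pecam1 were lower and Ms4a6c higher by test in cortex-labelled libraries. There the monocyte markers summed to 145 to 264 CPM in cortex-labelled against 27.2 to 126 CPM in brainstem-labelled libraries, and the microglia markers to 31325 to 36817 CPM in cortex-labelled against 40106 to 49100.1 CPM in brainstem-labelled libraries. The part of these in the label differences was not tested. The 6 calls became 1 (Cd63) without M1376 or without M1524, and 3 with genotype by record.

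At 2 months the label difference ran in opposite directions in mutants and controls for 12 of the 33 genes. In these, Cd63, Scarb2, Cln3, Glb1, Neu1, Psap, Gusb, Naglu, Gaa, Man2b1, Lipa and Grn, the cortex-labelled library was the higher in all 3 mutants and the lower in all 3 controls, a pattern that 1.71% of all genes tested showed. The reverse pattern was in 0 of 33 genes and 1.65% of all genes. Both counts rest on genotype by mouse number. With genotype by record the genotype-by-label difference was above 0 in 8 of 33 genes with a median of −0.16, while by mouse number it was above 0 in 27 of 33 with a median of 0.28. Naglu, for example, stood at 564, 386 and 462 CPM in cortex-labelled against 423, 248 and 375 CPM in brainstem-labelled mutant libraries. Its controls had 321, 264 and 225 CPM in cortex-labelled against 453, 397 and 352 CPM in brainstem-labelled libraries. A test of the difference between the genotype effects in the 2 labels was added after the data were seen. In edgeR it called 0 of 33 genes (0.0241% of all genes). At an unadjusted p under 0.05 stood 11 of 33 and 1381 of all 16595 genes. DESeq2 called 4 (Cd63, Neu1, Npc2 and Psap) and 98 of all 16595 genes. The next values are those of edgeR. Cd63 came closest (log2 difference 1.63 ± 0.29 SE, adjusted p = 0.0789), before Neu1 (log2 difference 0.94 ± 0.22 SE, adjusted p = 0.261) and Psap (log2 difference 1.10 ± 0.28 SE, adjusted p = 0.283). With the mouse as a block 5 passed, Psap, Grn, Cd63, Naglu and Neu1, all with the higher genotype difference in cortex-labelled libraries. Of all 16595 genes 120 passed in that fit, 98 of them in this direction. At end-stage the same test called 0 of 33 (0.0844% of all genes). At an unadjusted p under 0.05 stood 5 of 33 and 882 of all 16595 genes. DESeq2 called 2, Cd63 and Mitf (89 of all 16595 genes), and the fit with the mouse as a block 0 (63 of all 16595 genes). There Mitf was higher in the cortex-labelled library of both mutants and lower in that of both controls, as were 4.23% of all genes, and Arsb showed the reverse, as did 4.51%.

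**Figure D3:**
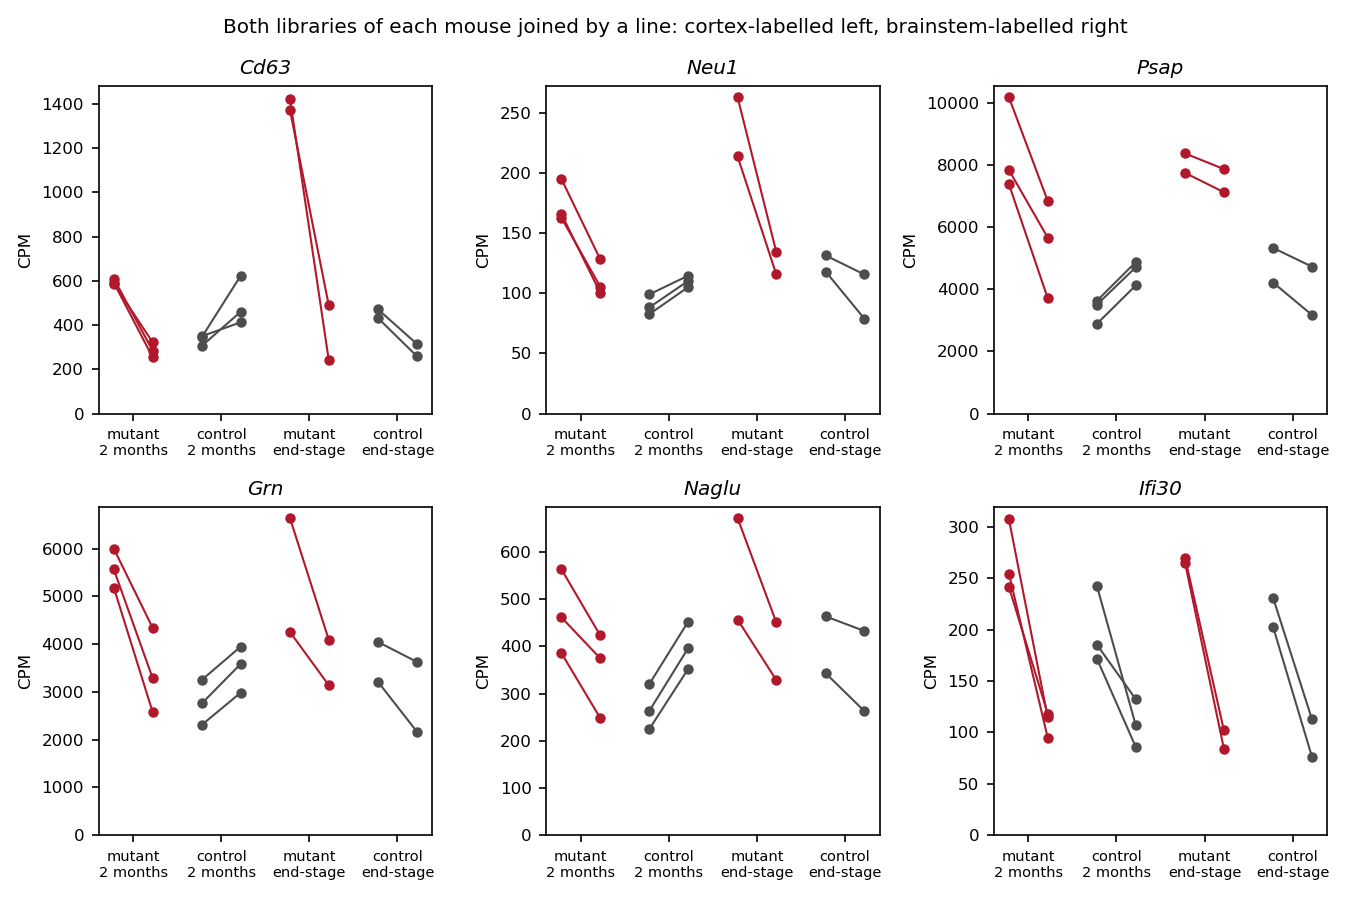
CPM of 6 genes in both libraries of each mouse, joined by a line with the cortex-labelled library on the left and the brainstem-labelled library on the right; red marks mutants and grey controls, and each y axis starts at 0. At 2 months the lines of Cd63, Neu1, Psap, Grn and Naglu fall to the right in all 3 mutants and climb in all 3 controls, whereas those of Ifi30 fall in all 10 mice.

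The transcription factors did not move as a group. Mitf (ENSMUSG00000035158.15, chr6:97807052-98021349, plus strand), best known from pigment cells and also used by myeloid cells, had 35.5 and 27.9 CPM in end-stage mutant cortex-labelled libraries, against 13.4 and 11.9 CPM in controls. It passed (log2 difference 1.32 ± 0.32 SE, adjusted p = 0.0271) and kept its call in 6 of 10 fits that left out 1 mouse. In brainstem-labelled end-stage libraries it stood at 20.1 and 18.4 CPM in mutants, against 27.4 and 23.9 CPM in controls, so the mutants were the lower there. The test of that contrast did not pass (log2 difference 1.74 ± 0.45 SE, adjusted p = 0.255). At 2 months Mitf had 21.6, 10.8 and 16.9 CPM in mutant cortex-labelled libraries, against 22.2, 18.2 and 15.9 CPM in controls, and 15.9, 15.6 and 11.9 CPM in mutant brainstem-labelled libraries, against 21.5, 16.9 and 11.7 CPM in controls. All of these overlapped.

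Tfeb, the factor best known for switching on lysosomal genes, had 82.2 and 95.6 CPM in end-stage mutant cortex-labelled libraries, against 133 and 109.8 CPM in controls, lower in both mutants but not past the threshold (log2 difference −0.45, adjusted p = 0.250 by edgeR). In the brainstem-labelled libraries it had 69.97 and 99.3 CPM in end-stage mutants, against 107 and 103 CPM in controls, again lower in both mutants and not past the test. At 2 months the values were 108, 99.8 and 99.04 CPM in mutant cortex-labelled libraries, against 115, 98.5 and 114 CPM in controls. Brainstem-labelled libraries of that age gave 124, 87.1 and 125 CPM in mutants, against 107, 90.6 and 112 CPM in controls, and neither label separated the genotypes. Tfe3, its close relative, was the most abundant of the 3 factors in CPM, at 211 and 234 CPM in end-stage mutant cortex-labelled libraries, against 249.9 and 257 CPM in controls. It had 223 and 219.6 CPM in end-stage mutant brainstem-labelled libraries, against 230.0 and 289.9 CPM in controls. At 2 months it had 197, 203 and 196 CPM in mutant cortex-labelled libraries, against 279.6, 193 and 192 CPM in controls, and 269, 204 and 277 CPM in mutant brainstem-labelled libraries, against 285, 246 and 228 CPM in controls. No comparison called Tfeb or Tfe3. Of the 10 genes that rose at 2 months in cortex-labelled libraries, 2 (Glb1 and Gaa) held an E-box in the promoter, against 8 of the 21 other genes with a promoter, and of the 4 that rose at end-stage 1 did (Gla), against 9 of the other 27. The E-box with the T and A flanks stood in 0 of the 10 and 4 of the 21 at 2 months. At end-stage it stood in 1 of the 4 and 3 of the 27.

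Stage was compared within each genotype and label. In mutant cortex-labelled libraries 1 gene of 33 was higher at end-stage than at 2 months, where 1.84% of all genes passed and 0.735% passed as higher. This was Cd63, at 1422 and 1372 CPM at end-stage against 610.1, 587 and 592 CPM at 2 months (log2 difference 1.23 ± 0.22 SE, adjusted p = 0.00707), and it passed in all 10 fits that left out 1 mouse. Without the 4 mice of conflicting genotype it did not pass, while DESeq2 called 6 genes and the fit without a low-count filter 4. Over all genes DESeq2 called 776 of 16595 and the fit without the filter 963 of 33450. P2ry12, Plac8, Klrd1 and Pecam1 were lower by test at end-stage in these libraries, and the part of the cells they mark was not tested. Mutant brainstem-labelled libraries gave 0 calls (0.0422% of all genes). At an unadjusted p under 0.05 stood 6 of 33 and 1704 of all 16595 genes. DESeq2 called 1, Lipa (196 of all 16595 genes). Controls gave 0 calls in both labels by edgeR (0.0% of all genes in each). At an unadjusted p under 0.05 stood 5 of 33 and 1432 of all 16595 genes for the cortex label. For the brainstem label 4 of 33 and 1367 of all 16595 genes did. DESeq2 also gave 0 calls in both, where 35 and 55 of all 16595 genes passed. The set still leaned higher at end-stage in control cortex-labelled libraries. There 27 of 33 genes had a log2 difference above 0, with a median of 0.19, against −0.01 over all genes tested. In mutant cortex-labelled libraries 22 were above 0, with a median of 0.07. Control brainstem-labelled libraries leaned the other way, with 9 above 0 and a median of −0.18. The mutant effect itself was not found to differ between stages. In cortex-labelled libraries 0 of 33 passed (0.265% of all genes). At an unadjusted p under 0.05 stood 6 of 33 and 1645 of all 16595 genes. DESeq2 called 1, Mitf (242 of all 16595 genes). In brainstem-labelled libraries 0 of 33 passed (0.00603% of all genes), and 0 by DESeq2. At an unadjusted p under 0.05 stood 3 of 33 and 733 of all 16595 genes. The stages come from different mice, and any batch that goes with stage cannot be told apart from it.

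Sgsh and Arsb, enzymes of heparan sulfate and dermatan sulfate breakdown, varied widely between mice of the same genotype and passed no comparison in the fit over all groups. They are given by mouse because of that spread, a choice made after their values were seen. Sgsh had 24.5, 39.8 and 39.5 CPM in 2-month mutant cortex-labelled libraries, against 24.2, 48.6 and 12.3 CPM in controls. The brainstem-labelled libraries of the same mice gave 9.73, 38.3 and 43.4 CPM in mutants, against 22.2, 50.7 and 13.9 CPM in controls, so the order of the controls was that of their cortex-labelled libraries. At end-stage Sgsh stood at 25.7 and 72.3 CPM in cortex-labelled and 17.7 and 58.5 CPM in brainstem-labelled mutant libraries, against 25.2 and 49.3 CPM and 13.96 and 51.2 CPM in the control libraries of the same labels. M1524 and M1521 were high in both of their libraries, M1376 and M1375 low in both. Arsb had 217, 299 and 527 CPM in 2-month mutant cortex-labelled libraries, against 187, 145 and 373 CPM in controls. Its brainstem-labelled values were 282, 301 and 605 CPM in mutants, against 111, 167 and 436 CPM in controls, with M2624 and M2633 the highest of their genotype in both labels. Over all 10 mice, the SD of the mouse means (both libraries averaged on the log2 scale) was 0.79 for Sgsh, 0.70 for Gla and 0.69 for Arsb. These were the 3 highest of the set, and the lowest was 0.10 for Lamp2. This SD pools both genotypes and both stages, so it also holds differences between them, such as that of Gla between end-stage genotypes. Sgsh shares 955 exon bases with Card14 and Arsb shares 1948 with Gm26527, each on the opposite strand.

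**Figure D4:**
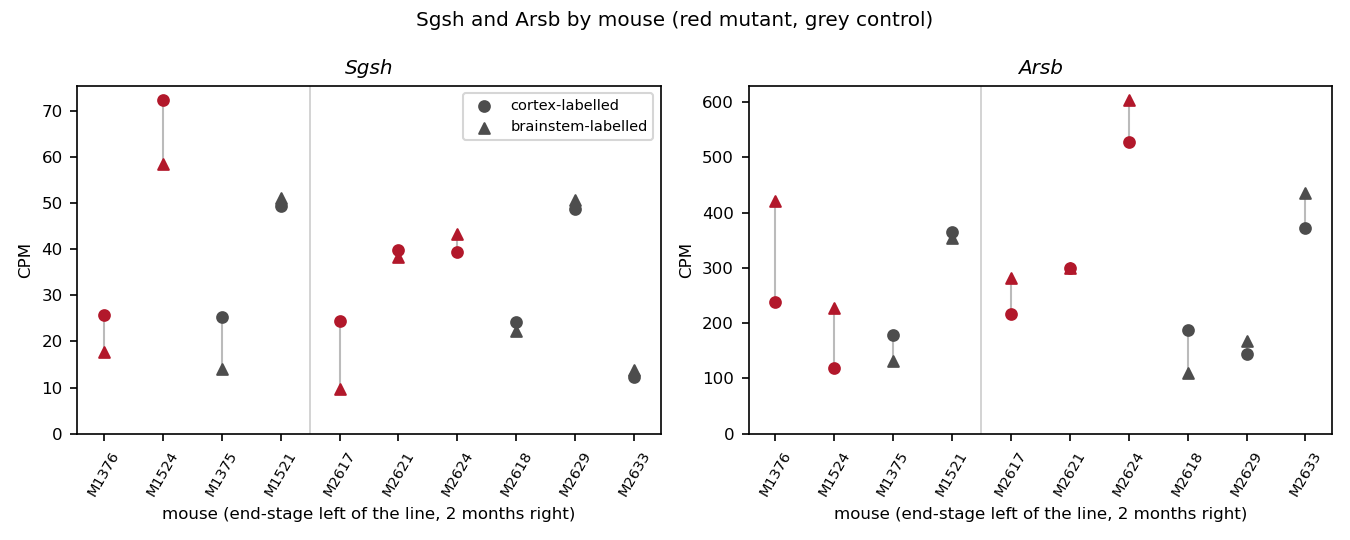
CPM of Sgsh and Arsb in each mouse, with circles for cortex-labelled and triangles for brainstem-labelled libraries joined by a grey line; red marks mutants, grey controls, and the y axes start at 0. At end-stage the Sgsh values of M1524 (72.3 and 58.5 CPM) lie far above those of M1376 (25.7 and 17.7 CPM), although both are mutants, and those of M1521 lie above those of M1375.

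Another 72 genes of the lysosome in 5 lists (19 hydrolases, 16 proton pump genes, 15 membrane proteins, 14 of nutrient sensing and 8 of enzyme sorting) were read in the same fit. In end-stage cortex-labelled libraries 4 of 72 rose in mutants, where 1.83% of all genes did, with a median log2 difference of 0.10. Gpnmb, a glycoprotein of the endolysosomal membrane known from damage-responding macrophages, had 21.3 and 66.7 CPM in mutants and 0 counts in both controls. That is at least 353-fold higher against the limit of 3 counts over the control group (adjusted p = 0.00582 by edgeR). Galns, a sulfatase of keratan sulfate, had 54.8 and 116 CPM in mutants, against 29.97 and 39.6 CPM in controls (log2 difference 1.29 ± 0.34 SE, adjusted p = 0.0406). Ostm1, the partner of the chloride transporter Clcn7, had 140.4 and 114 CPM in mutants, against 85.04 and 75.4 CPM in controls (0.67 ± 0.17, adjusted p = 0.0297). Atp6v1a, a catalytic subunit of the proton pump, was the 1 of 16 pump genes that rose, at 53.1 and 57.5 CPM in mutants, against 31.5 and 25.5 CPM in controls (0.96 ± 0.21, adjusted p = 0.0161). The median log2 difference was 0.32 for the 19 hydrolases and 0.05 for the 16 pump genes.

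At 2 months in cortex-labelled libraries 3 of the 72 genes rose and 2 fell in mutants, where 3.64% and 1.81% of all genes did, so the shares were near that background, with a median log2 difference of 0.05. Cln6, a protein of the endoplasmic reticulum that helps export lysosomal enzymes, had 41.2, 47.6 and 32.2 CPM in mutants, against 23.1, 20.8 and 21.7 CPM in controls (log2 difference 0.88 ± 0.19 SE, adjusted p = 0.00941). Clcn7 had 101, 94.1 and 113 CPM in mutants, against 70.9, 47.1 and 48.6 CPM in controls (0.89 ± 0.24, adjusted p = 0.0352). Plbd2, a lysosomal phospholipase B-like protein, had 261, 231 and 231 CPM in mutants, against 159, 156 and 162 CPM in controls (0.60 ± 0.16, adjusted p = 0.0355). The mutants exceeded every control in each of these genes. The genes that fell were both near the limit of detection. Rragd, a Rag GTPase of nutrient sensing, had 0, 0 and 2 counts in mutants, against 50, 11 and 8 counts in controls. Tfec, another relative of Tfeb, had 0 counts in the 3 mutants, against 11, 6 and 15 counts in controls, which is at least 11.6-fold lower in mutants, taking 3 counts over the mutant group as the limit (adjusted p = 0.0407 for Rragd and 0.0376 for Tfec by edgeR). The median log2 difference was 0.32 for the 19 hydrolases, 0.48 for the 8 genes of enzyme sorting, 0.03 for the 16 pump genes and −0.16 for the 14 genes of nutrient sensing.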

How the data were processed

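RNA of microglia from 2 region labels of 10 mice was sequenced as 20 libraries (Qiagen AllPrep RNA, SMART-Seq v4 amplification, KAPA Hyper Prep, Illumina NovaSeq paired reads, per the labels' protocols). The authors deposited a table of raw read counts per gene. FastQC, Subread and edgeR and the mm10 build are named without versions in the submitters' processing notes. Cell purification, strand use, multimapping and annotation are not given in the sources used here. Of 55487 gene IDs, 55094 were matched to GENCODE M21 for names, positions and exon lengths, and 393 were not.

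From these counts 1 edgeR (4.0.16, R 4.3.3) quasi-likelihood model over all 8 groups was fitted to the 16595 genes kept by filterByExpr, with TMM normalization, and p-values were adjusted over all of them (Benjamini-Hochberg, 0.05). CPM uses TMM-scaled library sizes, and log2 differences with their SE come from the model. Interactions are differences of 2 genotype differences. Replicates are separate mice. Libraries of 1 mouse deviated together from their group means (correlations 0.128 to 0.357), and a fit with the mouse as block is given where it changed a count. The scripts were tested on simulated data. Alternatives were DESeq2 (1.42.0), RLE normalization, no low-count filter, the compared groups only, genotype by sample record, no mice of conflicting genotype, the mouse block, and leaving out each mouse.

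Members, lists and tests were chosen with earlier results of these data known. Values in every library are given for the 8 genes with the smallest adjusted p in a genotype comparison, the transcription factors and the highest gene of each role, and up to 4 genes of each other comparison or list. Other genes given by library were picked after their values were seen. Promoters are from RefSeq, and Npc1 and Asah1 were not searched. Markers of other cell types were summed per library. Results of some single genes of the marker and lysosome lists are not reported here.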

Additional observations from a re-analysis of the deposited data

Results flagged for a closer look

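At 2 months the cortex-labelled library was the higher of the mouse in all 3 mutants and the lower in all 3 controls for 12 of the 33 genes, against 1.71% of all genes tested. The difference between the genotype effects in cortex-labelled and brainstem-labelled libraries was 1.63 on the log2 scale for Cd63, 1.10 for Psap, 1.05 for Grn, 1.002 for Naglu, 0.94 for Neu1, 0.87 for Gaa, 0.74 for Glb1, 0.70 for Man2b1, 0.61 for Gusb, 0.46 for Scarb2, 0.37 for Cln3 and 0.28 for Lipa. None passed in edgeR's test over all genes, where the adjusted p of Cd63 was 0.0789 and that of Neu1, the next, was 0.261. With the mouse as a block, which pairs the libraries of an animal, 5 of the 12 passed, Cd63, Grn, Naglu, Neu1 and Psap, where 120 of all 16595 genes passed. The pattern rests on genotype by mouse number, since with genotype by record the median of this difference over the 33 genes was −0.16, with 8 above 0.

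At end-stage, Mitf was higher in the cortex-labelled library of both mutants and lower in that of both controls (1.74, adjusted p = 0.255 by edgeR), a pattern in 4.23% of all genes. Arsb ran the other way (−1.02), a pattern in 4.51% of all genes, and did not pass either.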

How the results depend on the processing

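Counts are genes of the 33 that passed, except where all genes are named, and the cause of each shift was not tested. Over all genes, between end-stage genotypes in cortex-labelled libraries, 666 of 16595 passed in the fit over all groups. DESeq2 gave 1203 and the fit without a low-count filter 1282 of 33450. By label in 2-month mutants these fits gave 805, 1426 and 1438, and the mouse block 1471. By label in end-stage mutants they gave 384, 800 and 954, and the block 813. RLE normalization changed no count of the 33. With genotype by sample record, cortex-labelled libraries gave 1 gene at end-stage and 0 at 2 months, and the label comparison gave 3 in end-stage mutants, 0 in 2-month mutants and 1 in 2-month controls. Of all 16595 genes that reading gave 171, 1, 150, 11 and 10 in the same order. Under that reading the 2-month differences in cortex-labelled libraries reversed to −0.45 for Psap, −0.44 for Neu1, −0.49 for Npc2, −0.33 for Man2b1, −0.22 for Grn, −0.36 for Gm2a, −0.081 for Scarb2, −0.25 for Glb1, −0.31 for Cd63 and −0.32 for Gaa, and the label differences in 2-month mutants to −0.10 for Cd63 and −0.079 for Npc2. Without the 4 mice of conflicting genotype, 0 passed at 2 months in cortex-labelled libraries, 3 by label in end-stage mutants, 0 by label in 2-month mutants and 0 by stage in mutant cortex-labelled libraries. In the compared groups only, 1 passed by label in end-stage mutants and 1 in the 2-month genotype-by-label test. DESeq2 gave 10 (cortex label) and 3 (brainstem label) between end-stage genotypes, 1 in brainstem-labelled libraries at 2 months, 2 and 4 in the genotype-by-label tests at end-stage and 2 months, 1 for genotype by stage in cortex-labelled libraries, 1 by label in the controls of each stage, 9 in 2-month mutants, and 6 and 1 by stage in mutant cortex-labelled and brainstem-labelled libraries. Without the low-count filter 9 (cortex label) and 2 (brainstem label) passed between end-stage genotypes, 2 in brainstem-labelled libraries at 2 months, 1 and 4 in the genotype-by-label tests at end-stage and 2 months, 2 and 1 for genotype by stage under the cortex and brainstem labels, 1 by label in the controls of each stage, 8 in 2-month mutants, 4 and 2 by stage in mutants under the cortex and brainstem labels, and 1 by stage in brainstem-labelled controls. With the mouse as block (pairing by animal) 10 and 12 passed by label in end-stage and 2-month mutants, 1 and 3 in the controls, and 5 in the 2-month genotype-by-label test, with 0 at end-stage. Genotype and stage differ between mice, so no block could be fitted there. Leaving out 1 end-stage mouse leaves 1 mouse in its group. Over all genes, too, fewer passed between end-stage genotypes in cortex-labelled libraries without M1375, M1376 or M1521 than with all mice. Leaving out 1 mouse gave 1 to 6 calls in end-stage and 4 to 10 in 2-month cortex-labelled libraries, 1 to 5 by label in the mutants of each stage, 0 to 1 in the 2-month genotype-by-label test, 1 to 1 by stage in mutant cortex-labelled libraries, and 0 to 0 in every other comparison. Of 490 values of single genes under the alternatives, 375 counted as the same, 96 lost the call, 12 reversed and 7 moved by more than their spread. Those 7 belong to tests of transcription factors that had not passed in the fit over all groups. The 375 include values of such tests, which had no call to keep.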
